A study of Mus musculus with 20 samples.

Results

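The comparison set 9 single mouse bone marrow cells sorted as CD150-positive against the 4 CD150-negative cells that held few reads of red cell genes, 13 of the 20 cells of the series. The 9 cells, titled A3, A8, A10, A11, B3, B4, B9, B11 and B12, carried the sort label Lin-cKit+CD150+CD48-. The 4 cells, titled D3, D9, D11 and D12, carried the label Lin-cKit+CD150-, which names no CD48 gate. All came from bone marrow of C57BL/6J mice, with no treatment, age or sex named. The 4 were taken from 11 CD150- cells because erythroid genes took less than 0.5% of their gene reads. D3, at 0.252%, lay just inside that limit and D4, at 1.06%, just outside it, and the other 7 CD150- cells were left out. The 4 cells were thus selected on a measured value, the erythroid share, which is given as a description.

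Blood stem cells of the mouse sit among lineage-negative, cKit-positive marrow cells, and CD150 (the product of Slamf1) with absence of CD48 is a standard surface code for them. CD150-negative cells of the same compartment include multipotent progenitors that have moved towards lymphoid and myeloid fates. CD150-high stem cells are known for megakaryocyte and platelet transcripts such as Vwf, and most stem cells in resting marrow divide rarely.

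Each cell was read with Quartz-Seq, a whole-transcript method that turns the poly(A) RNA of a lysed cell into PCR-amplified cDNA, here with ERCC spike-in RNA in the lysis buffer. Gene reads ran from 660007 to 3722713 in the CD150+CD48- cells and from 2510594 to 3355469 in the 4 CD150- cells, so every cell was thinned to 660007 gene reads and levels are given as CPM, in which 1 read is 1.52 CPM. Each sample was 1 cell and no label names an animal or culture, so each group stands for 1 sample, and no p-value or standard error can be given. Intervals at 95% cover counting error only, since PCR reads without molecular identifiers do not count molecules independently. The letter D marks all 4 CD150- cells and the letters A and B all CD150+CD48- cells, so whatever the letters stand for and the sort cannot be told apart. Per ERCC read there were 22.3 to 109 gene reads in the CD150+CD48- cells (median 68.1) and 12.7 to 43.8 in the 4 CD150- cells (median 30.2). Genes with a read at equal depth numbered 4752 to 8690 (median 5311) and 5492 to 8819 (median 6162), and unaligned reads made up 8.17% to 80.2% and 14.5% to 23.6%.

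The marker genes set the groups apart only in part. Vwf (ENSMUSG00000001930, chromosome 6, 125546774 to 125686679, plus strand of GRCm38), which encodes the clotting protein von Willebrand factor, had reads in 7 of the 9 CD150+CD48- cells and in 0 of the 4 CD150- cells. Its level ran from 0 in A3 and B3 through a median of 60.6 to 605 CPM in B4, and the group mean of 174 CPM was at least 153-fold above a floor of 3 reads over the CD150- group. No read in 4 cells still allows a share of cells with a read of up to 60.2% (exact Clopper-Pearson), a limit for counting over these 4 cells only, not over animals. Cd9, a tetraspanin of stem cells and platelets, was read in 8 of 9 cells, with a median of 7.58 and a highest value of 520 CPM in B4, and in D12 alone of the 4, at 9.09 CPM. Its means of 103 and 2.27 CPM differed 45.5-fold (20.8 to 124), although the cells overlapped. Slamf1 itself, the gene of CD150, was read in 3 of the 9 cells, at 108 CPM in B12, 16.7 in B11 and 1.52 in A8, and in none of the 4. The 6 CD150+CD48- cells without a Slamf1 read carried the CD150 label all the same. At this depth a missing read thus did not mark a cell as CD150-negative, although all reads fell in CD150+CD48- cells.

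The lymphoid side of the marker set was thinner. Flt3, a receptor kinase of lymphoid-primed progenitors, was read at 558 CPM in D11 and 66.7 in D9, at 0 in D3 and D12, and also at 289 CPM in A3 and 115 in B11. Its log2 fold (the 9 cells' mean over that of the 4, each after adding 1 CPM) was -1.77 and became 0.98 without D11. Dntt, which encodes the enzyme that adds bases to antigen receptor joints, gave 4.55 CPM in D11 and 0 in the other 12 cells. Il12a, a cytokine subunit gene on the marker list, was read in 7 of 9 and in 3 of 4 cells, with a log2 fold of 0.70, so it did not mark the CD150- cells. Of the gate genes, Kit was read in all 13 cells, with medians and ranges that overlapped (105 to 1501 CPM in the 9 and 356 to 1117 in the 4). Cd48 was read in B3 alone, at 232 CPM, although B3 carried the CD48-negative label.

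The name stem-like was checked against the stem cell genes. The 45 listed stem cell genes took 1.27% to 1.79% of gene reads in the 4, inside the range of 0.651% to 2.09% in the 9. The 7 CD150- cells left out ranged from 0.159% to 0.246%. The share is a sum, in which abundant genes such as Lmo2 weigh most. At equal depth 23, 33, 24 and 27 of the 45 had a read in D11, D12, D3 and D9. Among the 9 the number ran from 22 in B3 and B4 to 37 in A3 and B12. Whole profiles were about as alike between the groups as within them. Spearman's rho over genes had a median of 0.284 over the 36 pairs within the 9 (0.217 to 0.415), 0.290 over the 6 pairs within the 4 (0.271 to 0.360) and 0.278 over the 36 pairs between them (0.211 to 0.374). The most similar cell was of the same group for 9 of the 9 CD150+CD48- cells and for 1 of the 4 CD150- cells. D3, D11 and D12 were each most similar to B11, a cell with many genes detected. A CD150- cell has fewer cells of its own group to match than a CD150+CD48- cell has, so these counts do not compare how alike the cells of each group are.

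Genes of other cell types were silent in part. At equal depth no read in any of the 13 cells fell on 7 of 9 mast cell and basophil genes (among them Mcpt8, Ms4a2, Fcer1a, Prss34 and Cma1), on 8 of 12 genes of mature lymphocytes (among them Ms4a1, Cd3e, Cd4, Trac and Ncr1), on 5 of 10 of endothelium and stroma (Cdh5, Cxcl12, Col1a1, Pdgfrb and Sparc) and on 6 of 21 of neutrophils and monocytes (among them Mpo, Ctsg and Ms4a3). Others were read. Cd79b, a B cell receptor chain, was read in 5 of the 9 cells, at 603 CPM in B3 and 186 in A10, and at 6.06 in D11, and was higher by the rule given below. Klrb1c, an NK cell receptor gene, had 397 CPM in A11 alone. Emcn, an endothelial sialomucin also known from stem cells, stood at 177, 18.2, 156 and 0 CPM in D11, D12, D3 and D9 against at most 30.3 in the 9, and was lower by that rule. Of the neutrophil granule genes, Prtn3 was read in 7 of 9 and 4 of 4 cells, at up to 342 and 362 CPM, and Elane in A3 alone, at 245. Summed, the 9 mast cell genes took 0.0423% to 0.396% and 0.0399% to 0.114% of gene reads, mostly by Srgn, a proteoglycan gene of many blood cells. The 12 mature lymphocyte genes took at most 0.0627% and 0.000233%, and the 10 endothelial and stromal genes at most 0.0356% and 0.0197%.

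Across genes, 9794 had at least 10 thinned reads in all and a read in at least 3 cells. A gene is counted as higher or lower in CD150+CD48- cells where the means differed at least 2-fold with all 13 cells and again whichever cell was left out. By that rule 2090 genes were higher (21.3%) and 734 lower (7.49%), and the median log2 fold of all 9794 was 0.20. With all cells alone, 3223 (32.9%) and 2318 (23.7%) were past 2-fold, so 64.8% of the higher and 31.7% of the lower genes kept that difference without any 1 cell. Leaving out 1 CD150- cell took 17.1% (D9) to 19.9% (D11) of the lower genes below 2-fold, against 3.41% to 7.64% for a CD150+CD48- cell. In 80.9% of the genes read in the 4 cells, 1 cell held over 50% of the group's reads, against 50.2% in the 9. The filter is uneven too: a gene silent in the 9 needs reads in 3 of the 4 cells to pass, whereas a gene silent in the 4 needs 3 of 9. No read in the 4 was found for 546 of the higher genes (26.1%), and no read in the 9 for 17 of the lower (2.32%).

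These counts moved with how a group's level was formed. With means taken on the log scale 1379 genes were higher and 1259 lower (52.3% of the calls higher, against 74.0% in the main comparison), and the cause was not tested. Scaled to ERCC reads, 3658 were higher and 258 lower (93.4% higher) and the median of all genes moved up by 1.11 on the log2 scale to 1.31. With the CD150+CD48- cells of letter A alone 892 were higher and 1222 lower (42.2%), and with those of letter B alone 1366 and 856 (61.5%). The levels and log2 folds below are at equal depth, and those on the ERCC scale are named as such. Shares of gene reads held by a list, here and above, are taken over all gene reads of a cell, before thinning.

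Few genes separated every cell. All 9 CD150+CD48- cells lay above all 4 CD150- cells for 10 genes (0.102%) and below them for another 10 (0.102%). They were found by searching 9794 genes for such a gap. How many such genes a split of the cells without regard to the sort would give was not tested, so they are given as a description. Prkcsh (chromosome 9, 22002806 to 22014222), the beta subunit of the endoplasmic reticulum enzyme glucosidase II, was read in all 9 cells, from 3.03 CPM in B11 through a median of 34.8 to 662 CPM in A8, and in none of the 4. Its mean of 146 CPM was at least 129-fold above the floor. Nek9, a kinase of the mitotic spindle pathway, had 3.03 CPM in D11, 0 in D12 and 1.52 in D3 and D9, against 45.5 to 1102 CPM in the 9 (median 205), the widest gap between the groups among the higher genes. Its means differed 226-fold (88.3 to 832). The carboxypeptidase gene Cpq gave 1.52 CPM in D11 and 0 in the other 3, against 13.6 to 377 (median 114).

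Nfx1, a DNA-binding repressor gene, gave 3.03 CPM in D9 and 0 in the other 3 of the 4, against 13.6 to 1011 CPM (median 142). Hmgb3, a chromatin protein gene on chromosome X known from blood stem cells and progenitors, was read at 24.2, 0, 45.5 and 40.9 CPM in D11, D12, D3 and D9 and at 90.9 to 368 CPM in the 9 (median 221), a narrower spread over the 9 than that of Prkcsh, Nek9, Cpq, Nfx1 or Nudc. Nudc, whose product works with the dynein motor, gave 6.06 CPM in D11, 9.09 in D12 and 0 in D3 and D9, against 12.1 to 782 (median 132). Calm2, Rpl21 and Rpl21-ps8 were also among the 10 but have near-identical copies, so their counts are uncertain. On the ERCC scale 6 of the 10 still did not overlap: Prkcsh, Nek9, Cpq, Nfx1, Hmgb3 and Nudc.

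Among the genes below in all 9 cells, Rasa4 (chromosome 5, 136083916 to 136111860), which encodes a GTPase-activating protein that switches Ras off, had the widest gap. It was read at 256, 197, 135 and 50 CPM in D11, D12, D3 and D9 and in the 9 only in B3, at 1.52 CPM, a 947-fold difference (169 to 37502). It was also the only one of the 10 without overlap on the ERCC scale, where its log2 fold was -6.43. The small GTPase gene Rabl3 followed, at 364, 309, 133 and 535 CPM against 27.3 in A8, 1.52 in B9 and 0 in the other 7. Nfe2l2, the gene of the oxidative stress regulator NRF2, was read at 500, 567, 347 and 491 CPM in the 4 and from 0 to 92.4 CPM in the 9 (median 51.5), 10.6-fold apart (9.27 to 12.1). Its 4 values lay close together, and 7 of the 9 CD150+CD48- cells held reads, so this was a difference in level more than in detection.

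Phip, which encodes a bromodomain protein, was read at 2526, 485, 471 and 1342 CPM in D11, D12, D3 and D9 and at 0 to 338 CPM in the 9 (median 77.3). Shisa5, a membrane protein gene, stood at 400, 636, 308 and 377 CPM against 0 to 180 (median 65.2), with A10 the highest of the 9. Ik, a splicing factor gene, had 43.9, 311, 165 and 326 CPM against at most 27.3. The remaining genes were Ulk2 and Gabarapl2 of the autophagy pathway, Ash2l of the histone H3K4 methyltransferase complex, and the antiproliferative gene Tob2. For Gabarapl2 the gap was narrow, with 4.55 CPM in D11 and 6.06 in D12 against 3.03 in A8.

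**Figure D1:**
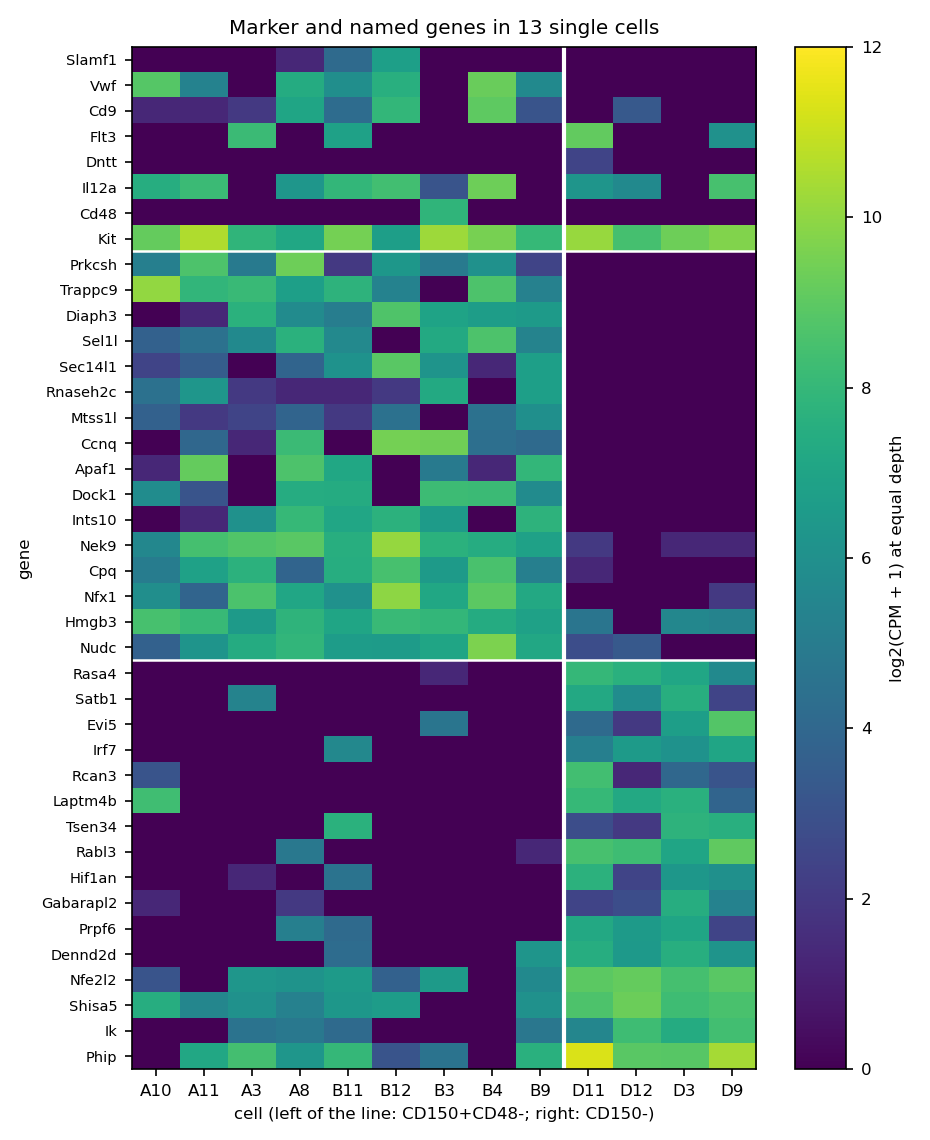
Levels at equal depth of marker and gate genes (top block) and of the named genes higher (middle) or lower (bottom) in CD150+CD48- cells, as log2(CPM + 1), in 13 columns of 1 cell each. Dark squares are 0 reads. The genes of the middle and bottom blocks were picked in these same cells for differences in detection or gaps in level, so their contrast follows from the choice. By that choice the middle block is nearly empty in D3, D9, D11 and D12. Most of the bottom block is empty in the 9 cells on the left, apart from Nfe2l2, Shisa5, Ik and Phip, which are read there at lower levels.

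By share of cells with a read, with ties broken by the weakest left-out fold, the 12 genes furthest to the CD150+CD48- side were Prkcsh, then Trappc9, Diaph3, Sel1l, Sec14l1, Rnaseh2c and Mtss1l, each read in 8 of 9 and 0 of 4 cells, and Ccnq, Vwf, Apaf1, Dock1 and Ints10, each in 7 of 9 and 0 of 4. Trappc9, a vesicle tethering subunit, ran from 0 in B3 to 1074 CPM in A10 (median 215), at least 234-fold above the floor. Diaph3, a formin that builds actin filaments, reached 417 CPM in B12 and was missing in A10. Sel1l, an adaptor of protein disposal in the endoplasmic reticulum like Prkcsh a gene of that compartment, ran from 0 in B12 to 395 CPM in B4. Apaf1, the scaffold of the apoptosome, was high in A11 (564), A8 (405) and B9 (245) but 1.52 CPM in A10 and B4. The levels of these 4 genes thus varied more than 10-fold among the cells that held reads, and the cell at the top differed from gene to gene.

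On the other side, each of the 12 genes named by the same rule was read in all 4 CD150- cells and in 1 or 2 of the 9. Satb1, a chromatin organiser of lymphoid progenitors, was read at 148, 56.1, 185 and 4.55 CPM in D11, D12, D3 and D9 and in A3 alone of the 9, at 40.9 CPM. Its log2 fold of -4.17 ran from -6.64 without A3 to -3.67 without D3, and was -4.04 on the ERCC scale. Irf7, a transcription factor of the interferon response, had 34.8, 92.4, 68.2 and 130 CPM in the 4 and 47.0 CPM in B11. Hif1an, which encodes an oxygen-sensing hydroxylase acting on HIF, had 209, 4.55, 81.8 and 63.6 CPM against 22.7 in B11 and 1.52 in A3. For Laptm4b, a lysosomal membrane protein gene, 1 CD150+CD48- cell turned the size of the difference: A10 held 321 CPM and the other 8 none, so the log2 fold of -2.09 became -7.28 without A10 and was 0.01 on the ERCC scale. Rcan3, an inhibitor of calcineurin, rested on D11 (324 CPM), with 1.52, 15.2 and 7.58 CPM in D12, D3 and D9, and its log2 fold went from -5.58 to -2.30 without it.

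DNA replication genes made up the group with the most members higher in CD150+CD48- cells. Of 33 listed S phase genes 31 passed the filter, 26 had a log2 fold above 0 (54.8% of all genes did) and 19 were counted as higher (61.3%, against 21.3% of all genes), with none lower. The list's median log2 fold was 2.61, ranged from 1.73 without B4 to 3.65 without D3, was 2.65 with genes silent in a group held at the floor, and lay 2.41 above that of all genes on either scale. Replication starts when the MCM2 to MCM7 helicase is loaded at origins and fired, and E2F factors switch many of its genes on together. The promoters below carry that E2F element for 3 genes that were read in the CD150+CD48- cells and little or not at all in the 4. They span 250 bases before to 50 after the start given by RefSeq (GRCm38.p6), 5′ to 3′ on the gene's strand, with GCGGGAA or GCGCGAA in capitals. Mcm6 lies at chr1:128359656-128359955 (minus strand), Cdc6 at chr11:98907901-98908200 (plus) and Orc1 at chr4:108579204-108579503 (plus).
Mcm6: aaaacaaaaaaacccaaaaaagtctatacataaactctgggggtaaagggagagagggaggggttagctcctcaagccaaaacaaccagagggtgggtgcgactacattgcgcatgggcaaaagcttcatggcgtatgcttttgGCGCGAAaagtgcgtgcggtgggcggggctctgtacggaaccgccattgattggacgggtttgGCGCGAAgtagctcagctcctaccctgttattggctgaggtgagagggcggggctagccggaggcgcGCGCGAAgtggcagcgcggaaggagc
Cdc6: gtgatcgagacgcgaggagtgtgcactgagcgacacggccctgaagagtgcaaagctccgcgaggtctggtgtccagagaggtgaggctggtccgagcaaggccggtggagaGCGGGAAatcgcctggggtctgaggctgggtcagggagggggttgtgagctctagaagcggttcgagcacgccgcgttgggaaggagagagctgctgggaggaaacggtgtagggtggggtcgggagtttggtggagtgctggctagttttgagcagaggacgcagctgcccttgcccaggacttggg
Orc1: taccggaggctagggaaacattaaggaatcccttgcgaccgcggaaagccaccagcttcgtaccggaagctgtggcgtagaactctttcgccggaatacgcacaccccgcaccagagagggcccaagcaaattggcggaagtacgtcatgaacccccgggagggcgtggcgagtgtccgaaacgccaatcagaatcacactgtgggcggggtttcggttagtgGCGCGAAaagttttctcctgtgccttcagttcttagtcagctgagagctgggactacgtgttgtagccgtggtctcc

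The element, searched on both strands with no overlap between matches, was found in 17 of the 25 S phase genes past the filter that had a promoter in the table (68.0%) and in 9 of the 15 of these counted as higher (60.0%). Of all 32851 promoters of this length 6.00% held it, and of 27025 genes 6.86%. The match describes the sequence and says nothing of binding in these cells. It did not separate the genes counted as higher from the other S phase genes. For megakaryocyte genes, GATA elements (AGATAA or TGATAA, both strands) were in 2 of 10 promoters (20.0%, against 21.0% of all genes) and the ETS element CCGGAAG in 0 of 10 (9.93% of all genes).

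Mcm6, a subunit of the helicase with 3 matches in its promoter, was read at 0, 15.2, 0 and 47.0 CPM in D11, D12, D3 and D9 and at 0 (A3 and A11) to 2882 CPM (A8) in the 9, with a median of 755. The means differed 70.6-fold, and 7 of the 9 cells lay above all 4. Mcm5 followed a narrower pattern, with 674 CPM in A8, 823 in B4 and 1014 in B9, 72.7 in B12, 1.52 in A11 and 0 in the other 4, against 9.09 CPM in D12 alone. Cdc6, the loader of the helicase, was read in A3 (336 CPM), B4 (148), B3 (139), B11 (51.5) and B9 (43.9) and in none of the 4, at least 70.4-fold above the floor. Orc1, a subunit of the origin recognition complex, was read in A10 (185), B9 (30.3) and A8 (22.7) and in none of the 4. Pcna, the sliding clamp of DNA polymerases, was read in all 4 CD150- cells at 235 to 373 CPM and in 8 of the 9 at up to 2706 (median 553), 3.14-fold apart with overlap. Tipin, a fork protection protein gene on chromosome 9, had 905 CPM in B4, 773 in B9, 365 in A8, 224 in B11 and 1.52 in A11, with no read elsewhere.

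The replication genes were not high in all 9 cells. They took 1.58% of gene reads in B9, 1.27% in B4 and 0.747% in A8, against 0.430% in A10, 0.301% in B3, 0.270% in B11, 0.227% in A11, 0.130% in A3 and 0.0427% in B12. The 4 CD150- cells stood at 0.242% (D3), 0.164% (D9), 0.130% (D11) and 0.109% (D12), within the range of the 9. Of the 31 genes, 15 had their highest level in B9 and 7 in B4. Summed over Mcm2 to Mcm7, B9 had 5650 CPM, A8 4974 and B4 4826, while A3 had 117 and B12 311, near D12 (215), D11 (221) and D9 (405) and below D3 (870). With the 4 cells of letter A alone the list's median was 1.00, with the 5 of letter B 2.69. Gene reads per ERCC read were 93.5 in B9, 91.1 in A8 and 43.1 in B4, and their part in the result was not tested.

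**Figure D2:**
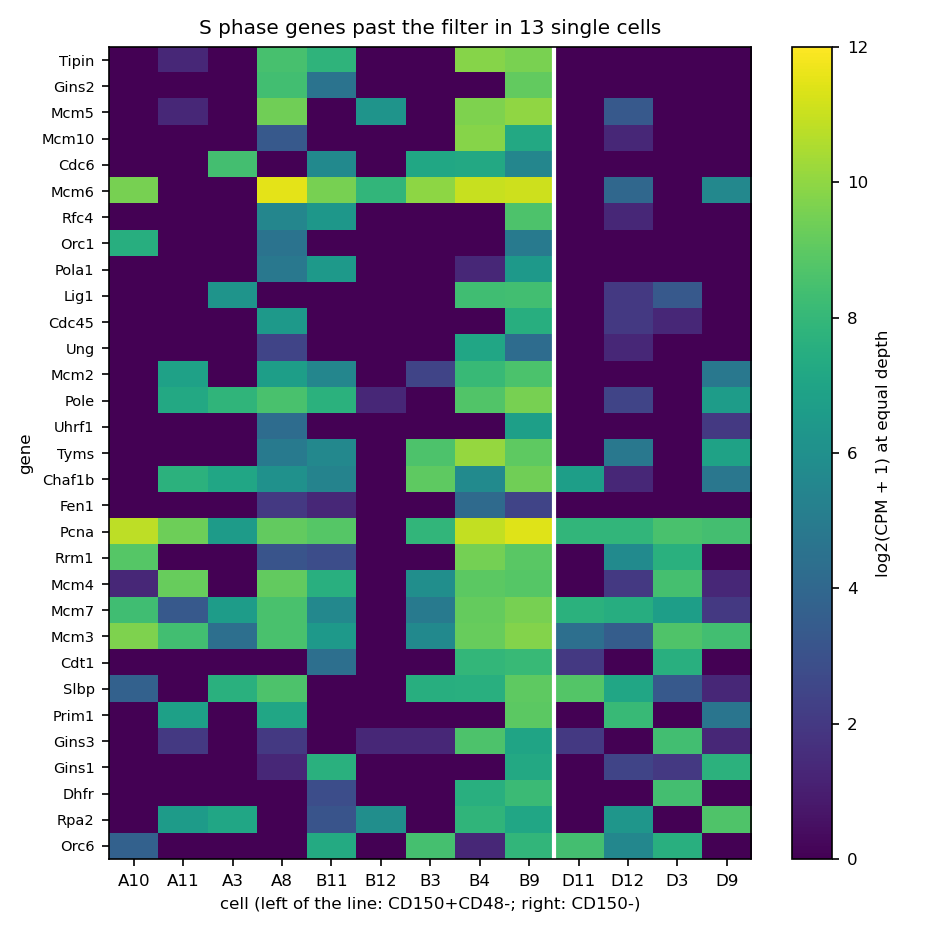
Levels at equal depth of the 31 S phase genes past the filter, as log2(CPM + 1), ordered by log2 fold, in 13 columns of 1 cell each with the 4 CD150- cells on the right. A8, B4 and B9 are bright over most of the 31 genes, B12 and A3 are dark, and D12, D3 and D9 hold scattered values.

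Genes of entry into the cycle and of its later phases were tallied apart from S phase. Of 18 listed G1 cyclins, kinases and inhibitors 14 passed, and 5 were higher (35.7%, against 21.3% of all genes) and none lower. Among the higher, Ccnd1 and Cdkn1c had no read in the 4 and so passed the filter through the 9 alone. The median log2 fold was 0.30, and 1.44 without D12. It lay 0.10 above all genes at equal depth and 0.58 on the ERCC scale. Ccnd2, a D-type cyclin, was read in all 9 cells from 3.03 to 1180 CPM (median 206) and in the 4 at 19.7, 223, 1.52 and 0 CPM. Its partner kinase gene Cdk6 was read in 5 of 9 cells, up to 788 CPM in B3, and in D9 alone of the 4, at 15.2. The inhibitor gene Cdkn1c (p57), known for holding stem cells at rest, was likewise read in 4 of 9 cells, A10, B9, B11 and B12, at 47.0 to 139 CPM, and in none of the 4. Genes that drive and genes that restrain the cycle were therefore both among those counted as higher.

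Of 25 listed G2/M genes only 7 passed the filter. None was higher, against 21.3% of all genes, and Cenpa, a centromeric histone gene, was lower (14.3%, against 7.49% of all genes). The list's share of gene reads was 0.000303% to 0.151% in the 9 and 0.000117% to 0.0335% in the 4, far under the 0.403% to 0.920% of the 7 CD150- cells left out. Ccnb1, the mitotic cyclin, was at 538 CPM in B4, 9.09 in B9 and 3.03 in D12 and at 0 elsewhere. Mki67 was read at 303 CPM in B4 and 232 in D3, with 4.55 and 6.06 in B11 and B9.

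Megakaryocyte and platelet genes were the other group that stood out in CD150+CD48- cells. Of 28 listed genes 15 passed, and 13 of these had a log2 fold above 0. Of the 15, 9 were counted as higher (60.0%, against 21.3% of all genes) and 1, Nfe2, as lower (6.67%, against 7.49%). The median was 2.85 (2.48 without D3 to 4.69 without D11, and 3.00 at the floor). That lay 2.65 above all genes at equal depth and 2.58 on the ERCC scale. Vwf and Cd9 belong both to this list and to the markers that were set out for the comparison. Vwf, Gp9, Rab27b and Itgb3, all counted as higher, had no read in the 4 and so passed the filter through the 9 alone. Of all genes past the filter 5.94% had no read in the 4. Neither the count nor the median was taken without these genes. Itga2b and Itgb3 encode the 2 chains of the platelet fibrinogen receptor. Itga2b was read at 765 CPM in A8, 302 in B4, 183 in B3 and 31.8 in B11, and at 3.03 CPM in D11 and 4.55 in D9. Itgb3 was at 577 CPM in A8, 147 in B4 and 7.58 in A10 and at 0 in the other 10 cells.

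Gp9, part of the von Willebrand receptor, was read in A8 (235), B4 (173), B11 (86.4), B9 (51.5) and B3 (24.2) and in none of the 4, at least 55.7-fold above the floor. Pf4, a platelet chemokine gene, had 611 CPM in A8 and 498 in B4, yet D12 held 72.7 CPM, more than 7 of the 9 cells. F2r, the thrombin receptor gene, was like Cd9 read in 8 of 9 cells, at up to 180 CPM, against D11 alone at 30.3. In the other direction Nfe2, a transcription factor of platelet formation, was read in all 4 CD150- cells at 402, 144, 261 and 423 CPM and in 8 of 9 at up to 282 CPM (median 89.4), a log2 fold of -1.53 that was -0.23 on the ERCC scale. The list's share of reads was 0.672% in A8, 0.336% in B4, 0.197% in B3 and 0.170% in A10, but 0.0361% in A3, and D11 at 0.161% lay above 5 of the 9 cells. Of the 28 genes 5 had no read in any of the 13 cells (Gp6, Tubb1, Clec1b, Mmrn1 and Cd226). Others were read in too few cells to pass the filter, most of them in A8, where F2rl2 had 1188 CPM, Treml1 467, Serpine2 355, Gp1bb 43.9 and Gp5 10.6, while Ppbp had 9.09 CPM in B9 and Gp1ba 9.09 in D12.

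**Figure D3:**
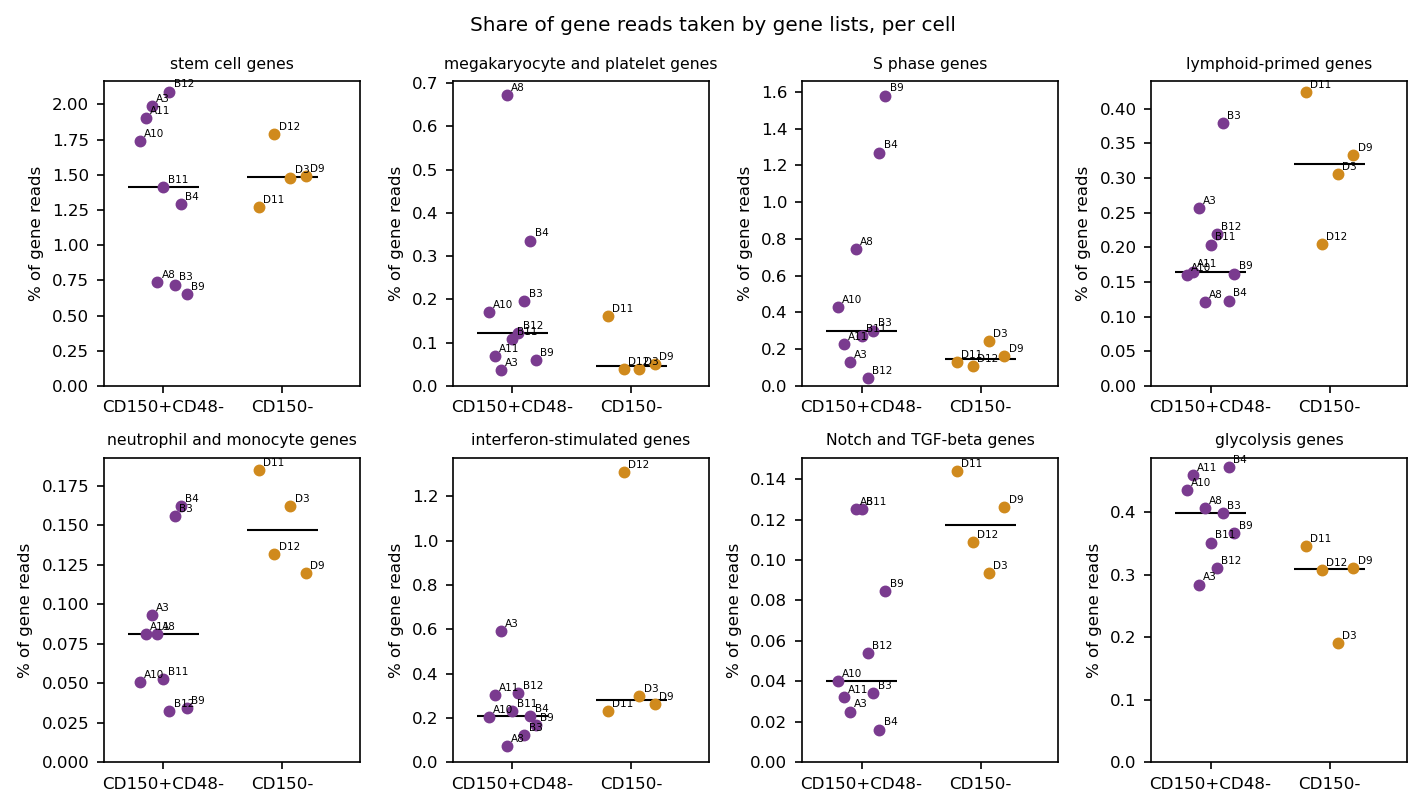
Percent of gene reads taken by 8 gene lists, with 1 point per cell and a bar at the group median. The stem cell panel overlaps fully, S phase genes are highest in B9, B4 and A8 and megakaryocyte genes in A8 and B4, and lymphoid, neutrophil and Notch and TGF-beta genes lie higher in most of the 4 CD150- cells, with overlap in every panel.

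Stem cell genes as a list differed little, yet single members differed in both directions. Of 42 past the filter 27 lay above 0, where 54.8% of all genes did. Of the 42, 11 were higher (26.2%, against 21.3% of all genes) and 2 lower (4.76%, against 7.49%), shares near those of all genes. The median log2 fold was 0.59, which is 0.39 above all genes and 0.29 on the ERCC scale. Tie1 and Tek encode the angiopoietin receptor pair of stem cells. Tie1 ran from 19.7 to 697 CPM in the 9 (median 103) and stood at 3.03, 7.58, 162 and 18.2 CPM in the 4, and Tek was read in 6 of 9 cells and in D9 alone of the 4. The ligand gene Angpt1 was high in both groups, at 694 to 3345 and 350 to 4127 CPM, with a log2 fold of -0.17.

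Nupr1, a stress-response chromatin protein gene, was read in 5 of 9 cells, at up to 992 CPM in A10, and in none of the 4. Aldh1a1, a retinaldehyde dehydrogenase, was read in A11 (330), B11 (159), B4 (84.8), B9 (81.8) and A10 (16.7) and in none of the 4, and Rarb, a retinoic acid receptor gene, in A3 (162), B12 (467), B9 (18.2) and A11 (1.52) and in none. Hlf, a transcription factor held to be a mark of the most immature stem cells, went the other way: it stood at 1329, 886, 3359 and 1377 CPM in D11, D12, D3 and D9 and at 0 to 1100 CPM in the 9 (median 418). Its means differed 3.77-fold, A3 and B11 alone lay above the lowest of the 4, and its log2 fold of -1.91 was -0.52 on the ERCC scale. Mecom, Meis1, Lmo2 and Procr, all regulators or markers of stem cells, were in no direction by the rule (log2 folds of 0.74, 0.05, -0.54 and -0.58).

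Lymphoid-primed genes leaned to the CD150- cells at equal depth, and neutrophil and monocyte genes did so with D3 included. Of 26 lymphoid-primed genes 15 passed, 4 lay above 0, none was higher and 3 were lower (20.0%, against 7.49% of all genes): Satb1, Cd52 and Lsp1. The median was -0.81 (-1.04 without A8 to -0.37 without D11), and on the ERCC scale it turned to 0.44, which was 0.87 under that of all genes there. Lsp1, a leukocyte cytoskeleton gene, stood at 200, 81.8, 432 and 480 CPM in the 4 and at 0 to 273 CPM in the 9 (median 53.0). The list's share of reads was 0.205% to 0.424% in the 4 and 0.121% to 0.379% in the 9, where B3, A3 and B12 lay above D12. Of the 26 listed genes 7 had no read in any of the 13 cells (among them Il7r, Rag1, Rag2, Blnk, Cd79a and Ccr7), while Ebf1, a transcription factor of B cell commitment, had reads in all 13, at 4.55 to 34.8 CPM in the 9 and at 45.5, 13.6, 16.7 and 18.2 CPM in the 4.

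Of 21 neutrophil and monocyte genes 9 passed and 4 were lower (44.4%, against 7.49% of all genes): Cebpa, Calr, Ctss and Plac8. The median of -1.35 was -0.27 without D3, or 0.09 with the filter applied again, so its direction turned on that cell, and it was 0.45 on the ERCC scale, 0.86 under all genes. Cebpa, the transcription factor of granulocyte commitment, was read at 63.6 CPM in D11 and 57.6 in D3, at 0 in D12 and D9, and at 1.52 in B9 alone of the 9. Plac8 was at 1132, 300, 0 and 600 CPM in D11, D12, D3 and D9, and among the 9 at 856 in B3, 153 in A8, 53.0 in B9 and 9.09 in B11. Calr, whose product folds glycoproteins in every cell type, had 31.8, 491, 515 and 356 CPM against 12.1 to 330, and its log2 fold of -1.35 was 0.05 on the ERCC scale. B3 thus held Cd48, Plac8 and much lymphoid-list signal among the CD150+CD48- cells.

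Signalling genes held calls in both directions. Of 17 cytokine receptors past the filter 3 were higher (17.6%, against 21.3% of all genes) and 4 lower (23.5%, against 7.49%), with a median of -0.13 that was 0.81 on the ERCC scale. The TGF-beta receptor gene Tgfbr1 was higher, at 320 CPM in B3, 245 in B4, 203 in B11 and 1.52 in B9, D11 and D12, whereas its partner Tgfbr2 was lower, at 16.7, 68.2, 0 and 174 CPM in D11, D12, D3 and D9 against at most 12.1. No letter A cell had a Tgfbr1 read, so with those 4 cells alone its log2 fold of 5.62 became -0.81. Il1r1, an interleukin-1 receptor, was also lower (47.0, 147, 0 and 4.55 CPM against at most 18.2). Of the 14 Notch and TGF-beta pathway genes past the filter 2 were higher (Smad6 and Tgfb1, 14.3%, against 21.3% of all genes). In the other direction 3 were lower (Rbpj, Smad2 and Smad7, 21.4%, against 7.49%). Rbpj, the DNA-binding partner of Notch, stood at 271, 361, 0 and 900 CPM and at 0 to 300 CPM in the 9 (median 12.1). The 20 listed genes held 0.0934% to 0.144% of reads in the 4, and in the 9 they held 0.125% in A8 and B11, 0.0845% in B9 and at most 0.0542% in the rest.

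Interferon genes also held calls in both directions. Of 16 past the filter 4 were higher (Ifit2, Rsad2, Usp18 and Xaf1; 25.0%, against 21.3% of all genes) and 3 lower (Irf1, Irf7 and Rtp4; 18.8%, against 7.49%), and the median of -1.13 was -0.23 without D12 and 0.09 on the ERCC scale, 1.22 under all genes. Irf1 was at 8992 CPM in D12, 1052 in D9 and 173 in D11, and at 1341 in A11. Ifit2 was read in 7 of 9 cells, at 1014 CPM in B4, and in none of the 4. Class I antigen presentation genes had 4 of 15 higher (26.7%) and 1 lower (6.67%), near the shares of all genes, with a median of 0.70 that was 1.30 without D12. H2-D1 and H2-T23 were among the higher but have close paralogs, so their counts are uncertain.

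Imprinted genes leaned to the CD150+CD48- side, whereas metabolic genes were counted as higher or lower in shares near those of all genes. Of 22 imprinted genes matched, 9 passed and 4 were higher (44.4%, against 21.3% of all genes), namely Grb10, Igf2r, Cdkn1c and Phlda2. Cdkn1c had no read in the 4 and so passed the filter through the 9 alone. The median of 1.96 was 1.76 above all genes at equal depth and 0.99 on the ERCC scale. Grb10, an adaptor that dampens insulin signalling, was read in 8 of 9 cells at up to 1159 CPM in B4 (median 155) and at 0, 6.06, 0 and 174 CPM in the 4. Phlda2 rested on B3 (298) and B9 (68.2), and with letter A alone its log2 fold of 4.58 became -0.81. Of 75 nuclear genes of oxidative phosphorylation 15 were higher (20.0%) and 3 lower (4.00%), close to the shares of all genes (21.3% and 7.49%). Yet 53 of the 75 lay above 0, where 54.8% of all genes did. The list's median of 0.58 ran from 0.41 to 0.76 with a cell left out, against 0.14 to 0.38 for the median of all genes. Within the list Atp5j, an ATP synthase subunit, was at 92.4 to 653 CPM in the 9 (median 274) and 28.8, 69.7, 112 and 78.8 CPM in the 4, with B11 and B4 alone under D3. Its means differed 3.87-fold, and its log2 fold of 1.94 was 3.06 on the ERCC scale, where the cells did not overlap. Of 17 glycolysis genes 5 were higher (29.4%) and 1 lower (5.88%), with a median of 0.35 and with Gpi1, the isomerase of the second step, at 48.5 to 1386 CPM in the 9 and 69.7, 89.4, 77.3 and 21.2 CPM in the 4.

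**Figure D4:**
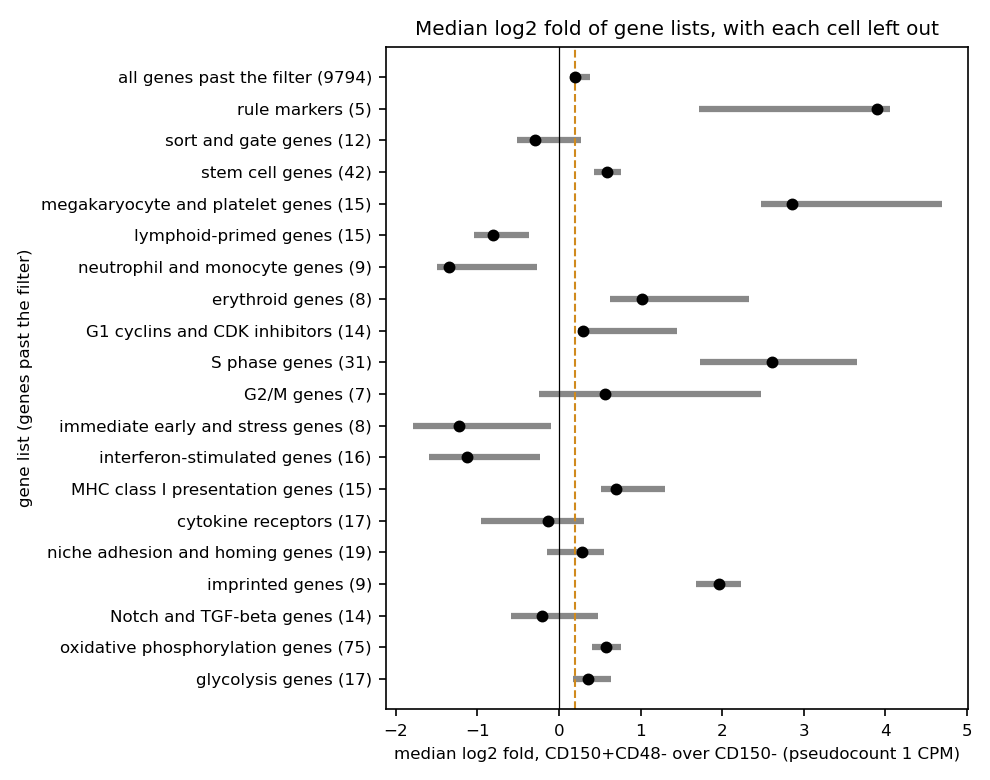
Median log2 fold (CD150+CD48- over CD150-, pseudocount 1 CPM, equal depth) of each gene list with at least 3 genes past the filter (points), the range when each of the 13 cells is left out in turn (grey bars) and the median of all genes (dashed line); the rule markers are the marker genes Slamf1, Vwf, Cd9, Flt3 and Il12a, since Dntt did not pass. S phase, megakaryocyte and imprinted genes and the markers stay right of 1.5 whichever cell is left out. The markers were set out for the comparison, and under other settings some of these medians fell below 1.5. G2/M, Notch and TGF-beta, cytokine receptor, niche and sort gene medians cross 0 with a single cell. On the ERCC scale the medians of lymphoid, neutrophil and interferon genes lie above 0. Relative to the median of all genes on that scale they lie at -0.87, -0.86 and -1.22.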

How the data were processed

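The 20 samples were single cells, and the authors deposited whole-number read counts per gene with no normalization, 38561 Ensembl genes and 5 HTSeq summary rows a cell, plus a table of 18464 of these genes and 51 ERCC rows with equal counts. HTSeq, R 3.0.2 and the build GRCm38 come from the submitters' processing notes, while for the aligner and the gene annotation nothing is given in the sources used here. Reads aligned to more than 1 place were not counted in genes, so genes with near-identical copies are undercounted, and no source states strand, so overlapping antisense genes cannot be told apart. Per the labels' protocols, libraries were made by Quartz-Seq with no molecular identifiers named.

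Summary and ERCC rows were left out. Gene reads of every cell were drawn down without replacement to 660007, and CPM, log2 folds (pseudocount 1 CPM), exact Poisson and conditional binomial intervals (95%) were computed with Python 3.11.15, numpy 2.4.6, pandas 2.3.3 and scipy 1.17.1. Where a group had no read, folds are bounds against 3 reads over the group (0.505 CPM for the 9 cells, 1.14 CPM for the 4). Symbols and coordinates came from GENCODE M21 (36723 identifiers matched) and promoters from RefSeq. Of 22 gene lists with 489 symbols, 2 symbols (Hbb-b1 and Snrpn) were unmatched. The members and lists were chosen with earlier results of these data known. Named genes are the markers and gate genes, for either direction the 12 counted genes whose shares of cells with reads differed most (at least 50% of cells in the higher group) and the 6 with the widest gap between cells, and from each list the 2 highest and 2 lowest folds. Further list members serve as examples. Values of a few genes are not reported here. The steps were tested on simulated data. No 2 cells held identical counts.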

Additional observations from a re-analysis of the deposited data

Results flagged for a closer look

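Of 72 sets of values within a group, 15 had a cell whose distance from the nearest other cell was large for the group's whole range. The cut-off is made for normally distributed values, where it flags about 1 in 20. A set with reads in 1 cell only is always flagged, as for Dntt in D11, Cd9 in D12 and Cd48 in B3. That rate therefore does not hold here, and the 15 sets are given without a chance level. Among CD150+CD48- cells, B4 was high for the marker genes (0.177% of gene reads), for the endothelial and stromal genes (0.0356%, from Col1a2 at 358 CPM) and for the G2/M genes (0.151%). B3 was high for the sort and gate genes (0.610%), for the mast cell and basophil genes (0.396%, with Srgn at 3900 CPM and Cpa3 at 71.2) and for Cd48 (232 CPM). A8 was high for the megakaryocyte genes (0.672%), A10 for class I presentation genes (2.78%) and A3 for interferon-stimulated genes (0.592%).

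Among the 4 CD150- cells, D11 was high for the megakaryocyte genes (0.161%), the cytokine receptors (0.275%), the mature lymphocyte genes (0.000233%) and Dntt (4.55 CPM). D12 was high for interferon-stimulated genes (1.31%, with Irf1 at 8992 CPM) and for Cd9 (9.09 CPM).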

How the results depend on the processing

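The 133 values were recomputed under 24 settings. Of the counts and list medians, 526 recomputed values stayed within the spread between cells or 1.5 times the count, 47 moved and 3 reversed. For single genes 2499 stayed, 113 moved and 4 reversed, and the cause was not tested. The spread is a standard deviation over single cells, wide for genes read in only some of them. Staying within it therefore does not show that a value is stable. Only genes counted as higher or lower, or list medians of at least 1 in size, could be labelled reversed. Flt3, whose log2 fold went from -1.77 to 0.98 without D11, is thus not among the 4. ERCC scaling gave 3658 genes higher and 258 lower, 29 and 2 without overlap, and medians of 1.31 (all genes), 1.60 (stem cell), 0.44 (lymphoid), 0.45 (neutrophil and monocyte, reversed), 1.89 (G1), 0.09 (interferon, reversed), 1.89 (class I), 1.31 (niche), 1.64 (oxidative phosphorylation) and 1.77 (glycolysis), and Laptm4b reversed to 0.01. Means on the log scale gave 1379 higher and 1259 lower genes and medians of 1.36 (markers) and 0.76 (imprinted). Letter A alone gave 892 and 1222 genes, 66 and 117 without overlap, medians of 1.80 (markers), -1.20 (G2/M) and 0.84 (imprinted), and reversed Erap1 (-1.87), Tgfbr1 (-0.81) and Phlda2 (-0.81). Letter B alone gave 1366 genes higher, and 52 and 51 without overlap. A pseudocount of 5 CPM gave a marker median of 1.92, a filter of 50 reads and 4 cells a G2/M median of -1.01, and median-of-ratios scaling 21 genes lower without overlap. Leaving out each cell and filtering again gave 1744 to 2538 genes higher and 582 to 840 lower, 11 to 23 and 13 to 52 without overlap, and medians from -1.49 to 0.09 for neutrophil and monocyte genes (0.09 without D3), from -1.38 to 0.71 for G2/M, from 2.36 to 4.69 for megakaryocyte and from 0.09 to 1.44 for G1 genes.

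No paired analysis was possible because the labels give no number that ties a CD150+ cell to a CD150- cell. The cells number 9 and 4, each group stands for 1 sample, and differences between animals were not measured.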

Other observations

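Adhesion and homing genes, which hold blood stem cells in the marrow niche, differed little as a list: of 19 past the filter 2 were higher in CD150+CD48- cells (10.5%, against 21.3% of all genes) and 1 lower (5.26%, against 7.49%), with a median log2 fold of 0.28. Alcam, an adhesion molecule gene, was read in all 4 CD150- cells at 330, 589, 253 and 383 CPM in D11, D12, D3 and D9, and in 5 of the 9, at 858 CPM in B12 and 229 in A10. Its log2 fold of -1.59 ranged from -3.35 to -1.32 with a cell left out and was -0.49 on the ERCC scale. The integrin gene Itga4 was read in all 13 cells with a log2 fold of -0.01. Jam3, a junctional adhesion molecule, was read in B12 (115), B11 (37.9), A3 (30.3) and B9 (6.06), against 1.52 CPM in D12.

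Immediate early and stress genes, which respond within minutes to handling as well as to signals, took 0.00753% to 0.0459% of gene reads in the 9 cells and 0.000179% to 0.147% in the 4. Of 8 past the filter 1 was higher (Ier3, 12.5%, against 21.3% of all genes) and 2 lower (Junb and Klf6, 25.0%, against 7.49%). The median was -1.23, and -0.68 on the ERCC scale. That median was -0.10 without D12 and -0.21 without D11, so it rested on those cells. Klf6 was read at 579 CPM in D12 and 326 in D3, at 0 in D11 and D9, and at up to 95.5 in the 9. Of the erythroid genes, whose share chose the 4 cells, Gata1 was read in B3 (123 CPM) and A8 (48.5) alone among the 13 cells. Ly6a, the gene of Sca-1, which neither sort label names, was read in 6 of 9 and 3 of 4 cells, up to 445 CPM in A3 and 629 in D12, with a log2 fold of -1.56 that was not 2-fold whichever cell was left out.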
